A study of Mus musculus with 6 samples.

Results

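The nuclear genes of the mitochondrial respiratory chain and the ATP synthase were described in cultured articular chondrocytes with and without the microRNA gene Mir34a. Members were chosen from the symbols in the deposited expression table: those starting with Ndufa, Ndufb, Ndufc, Ndufs, Ndufv, Sdha, Sdhb, Sdhc, Sdhd, Uqcr, Cox4i, Cox5, Cox6, Cox7, Cox8 or Atp5, leaving out Ndufaf and Sdhaf. This gave 76 of the 10189 genes in the table. The rule reads symbols and not expression, but it was set with earlier results of these data known. The 76 genes comprise 35 of complex I, 4 of complex II, 8 of complex III, 14 counted with complex IV and 15 of complex V. Of 85 coding genes that the same prefixes take in GENCODE M21, an annotation of mm10, 76 were measured. The other 9 (Atp5mpl, Atp5s, Cox6a2, Cox6b2, Cox7a1, Cox7b2, Cox8b, Cox8c and Ndufb2) were not analysed here.

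Both groups were C57BL/6 mice of 5 weeks. KO animals were homozygous for loss of Mir34a in the whole body (genotype label MiR-34a -/-, allele Mir34atm1.2 Mrl), and WT animals carried the normal gene. Each genotype had 3 libraries of total RNA from chondrocytes of pooled knee and hip cartilage, digested with collagenase and grown untreated in medium with 10% serum. Whether the 3 libraries of a genotype are separate mice is not stated, so the p-values measure the spread between these libraries, which may be technical. Mir34a itself was not analysed here, so the deleted gene gives no check of the labels.

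Oxidative phosphorylation is carried out in the inner mitochondrial membrane. Complex I (NADH dehydrogenase) and complex II (succinate dehydrogenase, also an enzyme of the tricarboxylic acid cycle) pass electrons to ubiquinone, complex III passes them to cytochrome c, and complex IV (cytochrome c oxidase) passes them to oxygen. Complexes I, III and IV pump protons, and complex V, the ATP synthase, uses the proton gradient to make ATP. Chondrocytes live in poorly oxygenated tissue and are known for a strongly glycolytic metabolism, which shifts when they are cultured in air.

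Values are TMM-normalized CPM, reads scaled by the effective size of each library. Without Rn45s, Lars2 and Mir6236, 3 rows rich in ribosomal RNA reads, the libraries held 947081 to 1772185 reads. In WT 1, 59.1% of all reads lay on Rn45s, against 2.98% to 11.4% in the other 5 libraries. A member had a median of 56.0 reads in a library (range 0 to 783). Markers of the labelled cell type were present: 11 of 14 chondrocyte markers had a row, with a summed level of 2315 to 3589 CPM in WT and 3650 to 6672 CPM in KO. Of macrophage markers 12 of 12 had a row, and they summed to 5022 to 5920 CPM in WT but to 983, 14693 and 3295 CPM in KO 1, KO 2 and KO 3. Lyz2 made up most of the sum in KO 2 (12165 of 14693 CPM). Of the 12 genes 10 were at their highest in KO 2, while Mrc1 had 212 CPM there, below each WT library (361 to 670 CPM). Of 8 neutrophil markers 4 had a row, summing to 187 to 403 CPM in WT and 76.5 to 217 CPM in KO, with S100a8 and S100a9 at 0 in the 3 KO libraries. Lcn2 made up most of the neutrophil sum (214 of 217 CPM in KO 1). Mmp8 was lower in each KO library (3.05 to 5.51 CPM, against 15.1 to 22.3 CPM in WT). Of 8 skeletal muscle markers 0 had a row. In such bulk cultures, fewer cells of a type and less RNA per cell cannot be told apart.

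Set against transcript length, subunit genes were among the more abundant transcripts. Their median level was 36.3 CPM per kb of transcript (mean of 6 libraries), which lay above 82.1% of the genes in the table. The median over genes was 24.9 CPM per kb for complex I, 25.0 for complex II, 30.3 for complex III, 63.7 for complex IV and 76.7 for complex V. Members are short transcripts, with a median of 863 bases against 3046 for all matched genes, so that a given level per kb rests on fewer reads. The highest levels were those of Uqcrh, which encodes the hinge protein of complex III, at 160.5 CPM per kb, and of Atp5b, which encodes the catalytic beta subunit of the ATP synthase, at 139.6 CPM per kb. In complex I the range ran from 3.06 CPM per kb for Ndufab1, the mitochondrial acyl carrier protein, to 80.5 CPM per kb for Ndufs8, an iron-sulfur subunit. The lowest level of any member, 2.71 CPM per kb, was that of Atp5g1, whose chosen transcript of 4715 bases is the longest of the 76.

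**Figure D1:**
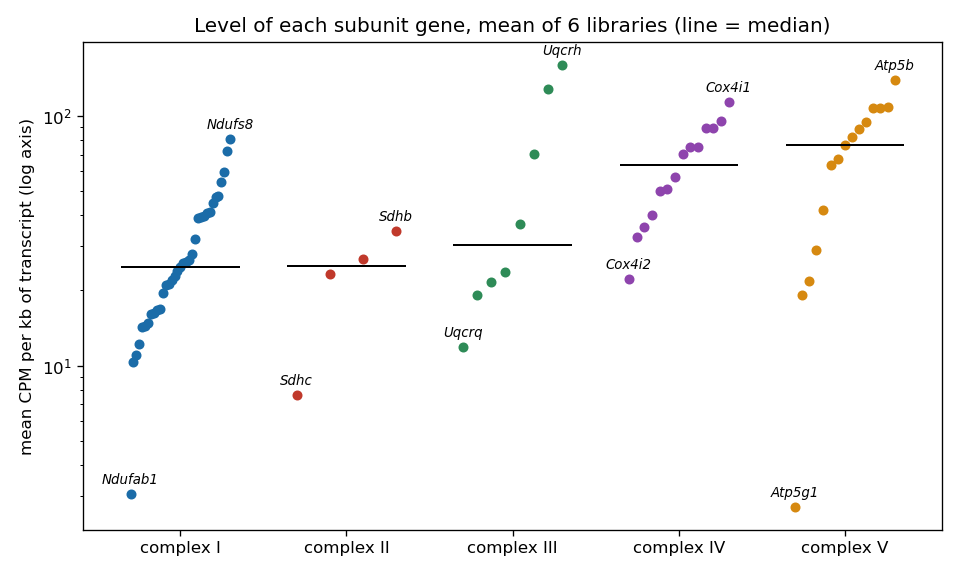
Level of each of the 76 subunit genes (points) by complex, as the mean of 6 libraries in CPM per kb of transcript on a log axis, with the median of each complex as a line. Complexes IV and V have the highest medians (63.7 and 76.7), and the lowest and highest gene of each complex is named.

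The comparison of KO with WT asked which subunit genes differ in chondrocytes that lack miR-34a. None of the 76 members passed the test at an adjusted p below 0.05 (limma on log2(CPM + 0.5), adjusted over all 10189 genes, of which 0.00981% were called). The lowest adjusted p of a member was 0.397. On recovered reads the quasi-likelihood test of edgeR also called 0 members (lowest adjusted p = 0.434) against 0.0196% of all genes, and DESeq2 called 0 of the 36 members to which it gave an adjusted p (lowest 0.328) against 2.66%. At an unadjusted limma p below 0.05, 4 members (Ndufa13, Atp5j, Ndufa9 and Ndufc1) were higher in KO and 0 lower, that is 5.26% of members where 11% of all genes had such a p (4.64% higher and 6.40% lower). The same count was 3 higher and 0 lower with edgeR and 1 higher and 0 lower with DESeq2. The members' share was thus 5.26% against 4.64% among higher genes and 0 against 6.40% among lower genes, and these shares were not tested against each other. Without KO 2, and also without KO 3, 0 members were higher and 1 lower at that level; without KO 1 or WT 3 the count was 2 higher.

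The estimates leaned slightly upward over all 76 members. Of the members, 47 had a positive and 29 a negative log2 fold change of KO against WT (61.8% positive, against 51.4% of all genes). The median was 0.13, against 0.02 over all genes. Among genes with no exon on the opposite strand the lean was absent: the median was 0.05 for 52 members (53.8% positive) and 0.07 for all such genes (55.1% positive). For 13 members (17.1%) the 3 KO values lay all on one side of the 3 WT values, 11 above and 2 below; over all genes this share was 18.4%, with 8.82% above and 9.57% below. The median SE of a member's log2 fold change was 0.30, against 0.36 over all genes. For 38 members (50%) the 95% interval lay inside a change of 2-fold in either direction, as it did for 36.0% of all genes. For the other 38 members the interval reached past 2-fold. The log2(CPM + 0.5) scale makes fold changes of low genes too small, but not those of genes listed at 0 in a single library. Ndufc1, at 0 in WT 1, had an estimate of 2.48 from means of 7.76 CPM in WT and 22.6 CPM in KO. With 3 libraries a group an exact permutation test of a single value cannot go below 0.1.

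**Figure D2:**
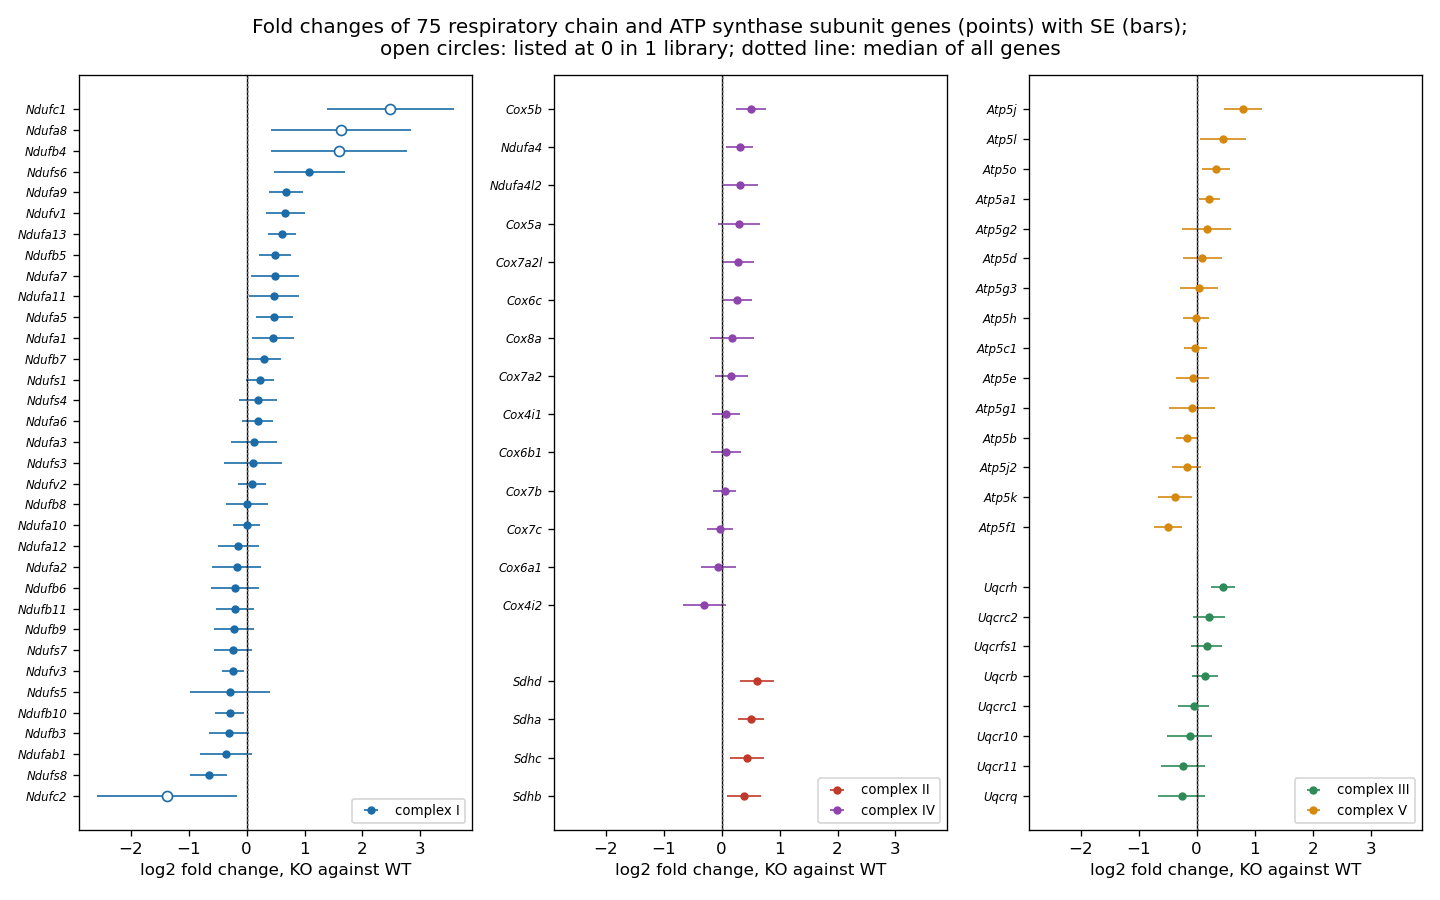
log2 fold change of KO against WT for 75 of the 76 members (points) with its standard error (bars), by complex, with the median of all genes (0.02) as a dotted line and genes listed at 0 in 1 library as open circles. The 4 genes of complex II lie between 0.39 and 0.61, whereas those of complexes III and V lie on both sides of 0.

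Complex I oxidises NADH through a peripheral arm that holds a flavin and a row of iron-sulfur clusters. Its 7 nuclear core subunits had log2 fold changes from −0.65 to 0.67 with a median of 0.11, and 0 of the 7 had an unadjusted limma p below 0.05. Ndufv1, which encodes the subunit that binds NADH and the flavin, had 15.7, 13.7 and 12.3 CPM in WT 1, WT 2 and WT 3, and 20.2, 18.6 and 29.4 CPM in KO 1, KO 2 and KO 3. The 3 KO values lay above the 3 WT values, KO 3 most, and the difference did not pass (log2 fold change 0.67, SE 0.33, limma adjusted p = 0.484). Ndufs8, an iron-sulfur subunit of the arm that meets the membrane, had 91.1, 107 and 89.7 CPM in WT and 36.6, 96.0 and 64.2 CPM in KO. KO 1 was low and KO 2 lay inside the WT range (−0.65, SE 0.32, limma adjusted p = 0.493). The estimate was −0.28 without KO 1 and −0.97 without KO 2. Ndufs1, which encodes the largest iron-sulfur subunit, had 49.6, 40.4 and 53.4 CPM in WT and 68.3, 45.1 and 56.3 CPM in KO, so that the groups overlapped (0.23, SE 0.24). Ndufs7, an iron-sulfur subunit next to the quinone site, had 16.3, 15.2 and 14.7 CPM in WT and 13.4, 12.2 and 13.5 CPM in KO. Its groups did not overlap, but the difference was small (−0.23, SE 0.33). Ndufs3 and Ndufv2, which belong to the same arm, had log2 fold changes of 0.11 and 0.10.

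The 28 accessory subunits of complex I, which surround the core and serve its stability and assembly, had 16 positive and 12 negative log2 fold changes with a median of 0.16. Over the whole of complex I the median was 0.13, but 0.03 without WT 3 and 0.26 without KO 1. Ndufa13, also known as Grim19, had the smallest p of all members. It had 44.0, 41.9 and 29.9 CPM in WT and 52.7, 63.2 and 59.9 CPM in KO, so each KO library was above each WT library. Its mean was 38.6 ± 7.60 CPM (SD, n = 3) in WT and 58.6 ± 5.39 CPM (SD, n = 3) in KO (a log2 difference of 0.61, SE 0.24, limma adjusted p = 0.397). The gene lies on chromosome 8 at 69894180 to 69902558 (mm10), with an overlap of 375 exon bases with Tssk6 on the other strand. Ndufa9, an accessory subunit near the quinone site, had 13.8, 20.6 and 15.2 CPM in WT and 25.6, 27.9 and 25.7 CPM in KO. These groups did not overlap either (0.68, SE 0.29, limma adjusted p = 0.443). Ndufb5, a subunit of the membrane arm, and Ndufa5, a subunit of the peripheral arm, were likewise higher in each KO library, by 0.49 (SE 0.28) and 0.48 (SE 0.32) on the log2 scale. Ndufv3, a small subunit beside Ndufv1, was lower in each: 82.3, 84.6 and 76.2 CPM in WT and 72.1, 65.7 and 69.7 CPM in KO (−0.23, SE 0.19). None of these passed.

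The 4 widest estimates of complex I came from genes listed at 0 in 1 library. Ndufc1, a membrane arm subunit, was listed at 0, 14.5 and 8.79 CPM in WT and at 24.8, 18.6 and 24.5 CPM in KO (a log2 difference of 2.48, SE 1.10, limma adjusted p = 0.452). Ndufb4 was listed at 0 in WT 1, Ndufa8 at 0 in WT 2 and Ndufc2 at 0 in KO 3, and their estimates were 1.6 (SE 1.17), 1.63 (SE 1.21) and −1.37 (SE 1.21) on the log2 scale. In the other 5 libraries these 4 genes had between 11 and 65 reads each. Over the table, 243 genes (2.38%) were at 0 in exactly 1 library with at least 5 CPM in each other library, so the pattern was not limited to subunit genes. Whether such a 0 is a failed estimate was not tested, and for these 4 genes the listed values alone are given. Ndufs6 also varied widely within WT, with 22.6, 5.33 and 4.10 CPM against 17.6, 15.2 and 20.2 CPM in KO (1.08, SE 0.61).

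Complex II was the one complex in which each gene had a positive estimate. It is built from 4 nuclear subunits and holds none encoded in mitochondrial DNA. Its log2 fold changes were 0.39 to 0.61 with a median of 0.48, and 0 of 4 passed with limma or had an unadjusted p below 0.05. Sdha, the flavoprotein that oxidises succinate (chromosome 13 at 74322254 to 74350280), had 72.2, 47.2 and 48.7 CPM in WT and 72.1, 76.4 and 88.1 CPM in KO. KO 1 lay just under WT 1, so the groups overlapped by that pair alone. The means were 56.0 ± 14.0 CPM (SD, n = 3) and 78.9 ± 8.25 CPM (SD, n = 3), a difference of 0.51 ± 0.23 (SE) on the log2 scale with a limma adjusted p of 0.462.

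Sdhb, the iron-sulfur subunit (chromosome 4 at 140961203 to 140979193), had 23.2, 42.7 and 37.5 CPM in WT and 37.4, 52.4 and 43.4 CPM in KO. Here WT 1 was low and the other libraries overlapped (log2 fold change 0.39, SE 0.29, limma adjusted p = 0.616). Without WT 1 the estimate was 0.14, and with WT 1 and KO 2 both left out 0.01. Sdhc, a membrane anchor of the complex (chromosome 1 at 171127165 to 171150603), had 17.0, 24.4 and 19.9 CPM in WT and 21.8, 30.4 and 31.8 CPM in KO (0.44, SE 0.30, limma adjusted p = 0.583). Sdhd, the other anchor (chromosome 9 at 50596357 to 50603812), had 20.7, 36.6 and 21.7 CPM in WT and 37.0, 46.1 and 34.9 CPM in KO (0.61, SE 0.30, limma adjusted p = 0.483). In both anchors WT 2 was the highest WT library and overlapped a KO value.

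Summed over the 4 genes, complex II had 133, 151 and 128 CPM in WT and 168, 205 and 198 CPM in KO, and these sums did not overlap. The estimate held its sign when each library was left out (median 0.39 to 0.59). It was 0.30 with WT 1 and KO 2 both left out, a step added after the data were seen. The 4 genes have no annotated exon on the opposite strand. KO 2, the library with the highest macrophage sum, also had the highest complex II sum. KO 1, with the lowest macrophage sum (983 CPM), had a complex II sum of 168 CPM, above each WT library. Other marker sums separated by genotype as the complex II sum did. The chondrocyte sum was higher in each KO library, by a narrow margin in KO 2 (3650 CPM) over WT 1 (3589 CPM). Of its 11 genes, 10 had positive estimates and 6 lay higher in each KO library. The osteoblast sum (6 of 7 measured, 655 to 1991 CPM in WT and 2932 to 3914 CPM in KO) was higher too. Ibsp made up most of the osteoblast sum (3620 of 3914 CPM in KO 1). Of the 6 osteoblast genes, 3 lay higher in each KO library, and Runx2 had a log2 fold change of 0.01. The proliferation sum (10 of 10, 1594 to 1892 CPM in WT and 847 to 1209 CPM in KO) was lower in each KO library. So was the mural sum (7 of 8, 572 to 732 CPM and 274 to 484 CPM). Negative estimates were found for 10 of 10 proliferation genes and 5 of 7 mural genes. The other mural genes, Cspg4 and Pdgfrb, had log2 fold changes of 1.12 and 0.81. The part of these cells or states in the complex II values was not tested.

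**Figure D3:**
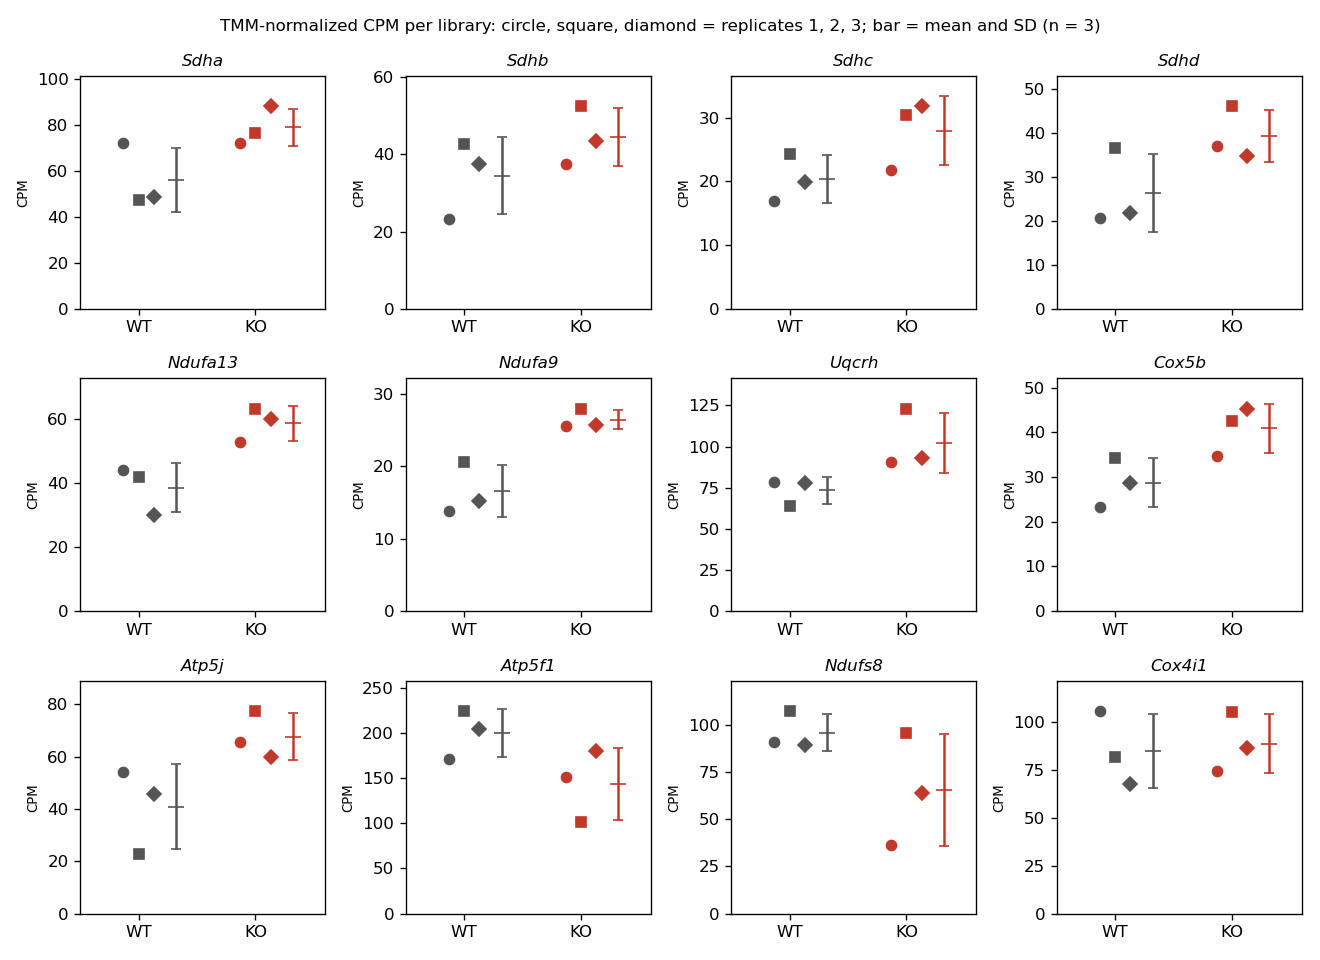
TMM-normalized CPM of 12 members in each library (symbols) with the group mean and SD (bars, n = 3) on axes that start at 0. Ndufa13, Ndufa9, Uqcrh, Cox5b and Atp5j lie higher in each KO library, while the 4 Sdh genes overlap by 1 or more libraries.

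Complex III, the cytochrome bc1 complex, had 4 positive and 4 negative estimates with a median of 0.04, which ranged from −0.07 (without KO 1) to 0.16 (without KO 3). Uqcrh had 78.5, 64.0 and 78.0 CPM in WT and 90.5, 123 and 93.0 CPM in KO. Each KO library was above each WT library, KO 2 most (log2 fold change 0.46, SE 0.21, limma adjusted p = 0.459). Uqcrfs1, the Rieske iron-sulfur protein that hands electrons on to cytochrome c1, had 27.6, 22.1 and 24.0 CPM in WT and 26.0, 31.4 and 25.7 CPM in KO. Its groups overlapped, with a log2 fold change of 0.17 (SE 0.26, 95% interval −0.42 to 0.75). Uqcrc1, a core protein of the complex, had 34.6, 37.3 and 47.5 CPM in WT and 43.1, 45.6 and 28.1 CPM in KO (−0.05, SE 0.27, 95% interval −0.66 to 0.57). Uqcrq, a small subunit that contacts cytochrome b, had 18.2, 20.6 and 18.2 CPM in WT and 19.5, 8.82 and 22.6 CPM in KO, where the low value of KO 2 set the estimate (−0.26, SE 0.40, and 0.14 without KO 2).

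Of the 14 genes counted with complex IV, 11 had positive and 3 negative estimates, with a median of 0.17 and 0 at an unadjusted limma p below 0.05. Cox4i1, the common form of subunit 4, had 106, 81.5 and 67.4 CPM in WT and 74.4, 105 and 86.3 CPM in KO, which overlapped (log2 fold change 0.07, SE 0.24, 95% interval −0.46 to 0.60). Cox5b, a subunit on the matrix side, had 23.2, 34.3 and 28.7 CPM in WT and 34.7, 42.6 and 45.3 CPM in KO. Each KO library was above each WT library, KO 1 by a narrow margin over WT 2 (0.51, SE 0.26, limma adjusted p = 0.495). Cox5a, its neighbour in the complex, had 14.4, 25.9 and 16.4 CPM in WT and 18.3, 32.3 and 19.6 CPM in KO. Replicate 2 was high in both genotypes (0.30, SE 0.36, and 0.05 without KO 2).

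Complex IV contains subunits with tissue forms. The muscle forms Cox6a2, Cox7a1 and Cox8b were not analysed here, while the common forms Cox6a1, Cox7a2 and Cox8a were measured. Cox4i2, the form of subunit 4 known from lung and from oxygen-sensing cells, had 22.0, 16.8 and 14.7 CPM in WT and 20.6, 11.3 and 12.2 CPM in KO (a log2 difference of −0.30, SE 0.37, limma adjusted p = 0.770). Per kb, Cox4i2 stood at 0.220 ± 0.00644 (SD, n = 3) of Cox4i1 in WT and 0.183 ± 0.0935 (SD, n = 3) in KO (exact permutation p = 0.50, two-sided). The ratio was close to the same in the 3 WT libraries, whereas KO 1 had 0.289 and KO 2 and KO 3 had 0.112 and 0.148. Ndufa4, first counted with complex I and now known as a subunit of complex IV, had 40.8, 31.2 and 42.8 CPM in WT and 50.4, 47.0 and 44.7 CPM in KO. Its groups did not overlap (0.31, SE 0.23, limma adjusted p = 0.613). Ndufa4l2, its paralog that hypoxia induces, was the more abundant per kb in 5 of 6 libraries, with a ratio to Ndufa4 of 1.35 ± 0.364 (SD, n = 3) in WT and 1.35 ± 0.415 (SD, n = 3) in KO (exact permutation p = 1.0, two-sided). Cox7a2l, known for joining complexes III and IV into supercomplexes, had 47.1, 61.7 and 54.5 CPM in WT and 50.8, 96.5 and 58.1 CPM in KO, with KO 2 standing high (0.28, SE 0.28, and 0.00 without KO 2). Cox7a2 had a log2 fold change of 0.17 (SE 0.29). Of 6 such ratios of paralogs or partners computed, Cox7a2l to Cox7a2 had an exact permutation p of 1.0, and the Benjamini-Hochberg adjusted p over the 6 was 1.0 for each. Without KO 2 the median of the 14 genes was 0.01.

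Complex V had 7 positive and 8 negative estimates with a median of −0.01. In the F1 head, Atp5a1 and Atp5b encode the alpha and beta subunits that form the catalytic ring. Atp5a1 had 213, 181 and 171 CPM in WT and 218, 248 and 194 CPM in KO (a log2 difference of 0.22, SE 0.18, 95% interval −0.20 to 0.64). Atp5b had 268, 272 and 303 CPM in WT and 299, 212 and 251 CPM in KO (−0.16, SE 0.19, 95% interval −0.58 to 0.27). Per kb the ratio of Atp5a1 to Atp5b was 0.523 ± 0.0890 (SD, n = 3) in WT and 0.690 ± 0.188 (SD, n = 3) in KO (exact permutation p = 0.30, two-sided). KO 2 was the highest library for Atp5a1 and the lowest for Atp5b. The other subunits of F1, Atp5c1, Atp5d and Atp5e, had log2 fold changes of −0.02, 0.10 and −0.07.

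The peripheral stalk, which holds F1 still while the rotor turns, held the members of complex V with the smallest p in both directions. Atp5j, which encodes coupling factor 6, had 54.0, 22.9 and 45.7 CPM in WT and 65.6, 77.4 and 59.9 CPM in KO. Each KO library was above each WT library, and WT 2 was low. The means were 40.9 ± 16.1 CPM (SD, n = 3) and 67.7 ± 8.91 CPM (SD, n = 3), a difference of 0.80 ± 0.32 (SE) on the log2 scale with a limma adjusted p of 0.414. It was 0.43 without WT 2. Atp5f1, which encodes subunit b, had 171, 224 and 205 CPM in WT and 151, 101 and 179.8 CPM in KO. KO 3 lay above WT 1, so the groups overlapped (−0.50, SE 0.24, limma adjusted p = 0.479), and without KO 2 the estimate was −0.27. Atp5f1 shares 337 exon bases with Wdr77 on the opposite strand. Of the other stalk genes, Atp5o had 50.3, 51.0 and 32.8 CPM in WT and 56.1, 52.9 and 56.9 CPM in KO (0.33, SE 0.24), and Atp5h had −0.01 (SE 0.22).

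Atp5g1, Atp5g2 and Atp5g3 encode the same mature c subunit of the rotor ring with different import sequences. Atp5g3 had 17.6, 23.6 and 19.9 CPM in WT and 21.8, 15.2 and 27.5 CPM in KO (a log2 difference of 0.04, SE 0.33). Atp5g2 had 12.6, 13.7 and 11.7 CPM in WT and 19.1, 8.33 and 18.4 CPM in KO (0.17, SE 0.42), and Atp5g1 had 13.8, 9.90 and 15.8 CPM in WT and 13.7, 9.80 and 13.5 CPM in KO (−0.08, SE 0.39). The groups overlapped in each of the 3 genes. Per kb, Atp5g2 stood at 0.621 ± 0.0742 (SD, n = 3) of Atp5g3 in WT and 0.690 ± 0.165 (SD, n = 3) in KO, and Atp5g1 at 0.102 ± 0.0328 and 0.0902 ± 0.0133 (exact permutation p = 0.70 and 0.60). The low ratio of Atp5g1 rests on the long transcript taken for it.

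By library, the median member lay 0.07, 0.02 and −0.15 (log2, against its own mean over the 6 libraries) in WT 1, WT 2 and WT 3, and 0.07, 0.14 and 0.07 in KO 1, KO 2 and KO 3. WT 3 was thus the low library by its median, and WT 1 equalled KO 1 and KO 3. By count, 17 of 76 members were at their lowest in WT 3, 14 in WT 1 and 15 in WT 2. Only 4 members were at their highest in WT 3, against 11 (KO 1) to 20 (KO 2) elsewhere. Over all genes, 1543 of 10189 were lowest and 1535 highest in WT 3. Summed CPM of the members was 3421, 3222 and 2985 in WT and 3386, 3468 and 3365 in KO, so the groups overlapped. KO 2 combined the highest medians of complexes II, III and IV (0.40, 0.21 and 0.22) with the lowest of complex V (−0.17). KO 2 was also the library with the highest macrophage sum, and the part of those cells in its pattern was not tested. Cytosolic ribosomal protein genes, which are also short and abundant, were low in WT 3 as well (median −0.12, with 30 of 80 genes lowest there). They were also low in KO 1 (median −0.08, with 23 of 80 lowest there), where the median member lay at 0.07. The part of library quality in the low WT 3 values was not tested.

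**Figure D4:**
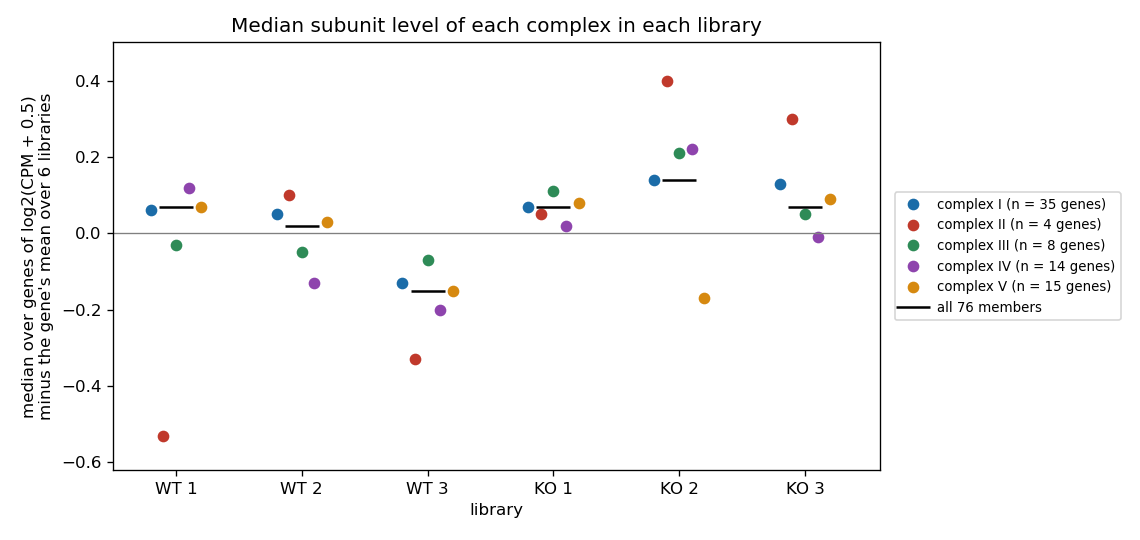
Median over the genes of each complex (coloured points) and over all 76 members (black lines) of log2(CPM + 0.5) minus the gene's mean over the 6 libraries, by library. WT 3 lies lowest for all members (−0.15), and KO 2 is highest for complexes II, III and IV but lowest for complex V (−0.17).

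The microRNA that the KO lacks was set against the members' 3′ UTRs. Its main product is shown because its seed, in capitals, defines the sites that were searched (RefSeq, GRCm38.p6; the hairpin lies at chr4:150068454-150068555, plus strand).
mmu-miR-34a-5p: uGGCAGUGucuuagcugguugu
A match to bases 2 to 8 occurred in the longest annotated 3′ UTR of 3 of 75 members (4.0%), against 17.9% of 9336 genes in the table. The members' UTRs are short, with a median of 203 bases against 1261. The 3 UTRs with a match are longer than that median, at 525 bases (Ndufa11), 2636 bases (Sdhc) and 4252 bases (Atp5g1). The 3 sites are shown 5′ to 3′ with the match in capitals.
Ndufa11: caggggagtatcccCACTGCCa
Sdhc: accgccccgagtgcCACTGCCt
Atp5g1: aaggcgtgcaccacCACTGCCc
None of the 3 genes passed: the log2 fold changes were 0.48 (SE 0.43) for Ndufa11, an accessory subunit of complex I, 0.44 (SE 0.30) for Sdhc and −0.08 (SE 0.39) for Atp5g1. Ndufa11 had 8.80, 6.86 and 13.5 CPM in WT and 11.8, 12.7 and 15.3 CPM in KO, which overlapped.

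The members' promoters were searched for motifs of 3 factors known to drive nuclear genes for mitochondrial proteins. RefSeq windows of 300 bases, 250 before and 50 after a start, were available for 63 members (68 windows). The palindrome of NRF1, nuclear respiratory factor 1, printed in capitals in the stretches that follow, was in 5 windows (7.35%), against 2.02% of windows of all genes in the table and 0.971% of all windows. AAGATGGCG, part of the motif of YY1, was in 7 (10.3%, against 2.88% and 1.40%). CCGGAAG, the core of ETS factors such as GABP, was in 16 (23.5%, against 17.6% and 8.86%). Both strands were searched, and overlapping matches to different motifs were counted under each. Of the 68 windows, 25 held at least 1 of the 3 motifs and 43 held none. A match is a description of these letters and not a measured site of binding, and the shares were not tested against each other.

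The NRF1 matches are shown as stretches of 30 bases on the gene's strand (GRCm38.p6), with the motif in capitals.
Atp5g2, chr15:102671070-102671099: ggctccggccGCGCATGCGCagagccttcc
Atp5k, chr5:108434430-108434459: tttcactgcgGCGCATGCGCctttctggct
Cox6a1, chr5:115349101-115349130: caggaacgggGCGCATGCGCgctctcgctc
Ndufa11, chr17:56717692-56717721: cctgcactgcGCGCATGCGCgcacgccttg
Uqcrc1, chr9:108936668-108936697: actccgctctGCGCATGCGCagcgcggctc
These 5 genes had log2 fold changes from −0.37 (Atp5k, subunit e of complex V, SE 0.29) to 0.48 (Ndufa11), on both sides of 0. For YY1, only the matches of Atp5j, Ndufa9 and Ndufc1 are shown. They were picked by their unadjusted limma p below 0.05, and a link between motif and fold change was not tested. Ndufc1 was listed at 0 in WT 1.
Atp5j, chr16:84835045-84835074: aagtgtaggaAAGATGGCGgagtcttagct
Ndufa9, chr6:126849096-126849125: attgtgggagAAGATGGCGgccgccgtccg
Ndufc1, chr3:51408914-51408943: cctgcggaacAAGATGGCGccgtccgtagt
The other 4 genes with this match, Atp5j2, Ndufs4, Ndufs6 and Ndufs7, had −0.17, 0.20, 1.08 and −0.23, and none of the 7 passed. In complex II, the ETS core was found for Sdhb and Sdhd but not for Sdha, and no window was available for Sdhc.
Sdhb, chr4:140961266-140961295: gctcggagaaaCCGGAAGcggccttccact
Sdhd, chr9:50603877-50603906: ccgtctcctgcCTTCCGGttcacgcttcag
In Sdhd the capitals are the same core read on the other strand.

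Atp5j lies head to head with Gabpa, which encodes the DNA-binding subunit of GABP, the opposite-strand exons overlapping over 397 bases. The labels name a kit that marks strand, but no source used here says whether the counting used it, so reads in such overlaps may belong to either gene. Of the 76 members, 24 overlap an annotated exon on the opposite strand. Their median log2 fold change was 0.21 with 19 of 24 positive, against 0.05 with 28 of 52 positive for members without such an overlap. Over the table the order was the other way round (−0.07 with an overlap and 0.07 without). Of the 4 members at an unadjusted p below 0.05, Ndufa13, Atp5j and Ndufa9 have an overlap. The part of opposite-strand reads in these estimates was not tested. Copies of subunit genes are common in the genome, with 12 pseudogenes in M21 whose own symbols the prefixes take. How reads shared with such copies were counted is not stated, so the levels of the members are uncertain to that extent.

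No gene of the related mitochondrial lists passed the limma test either. The 13 subunits encoded in mitochondrial DNA were not analysed here. Of 36 assembly factors with a row (48 listed), 0 passed with limma, and their median log2 fold change was 0.12. At an unadjusted limma p below 0.05 there were 1 higher and 3 lower (11.1%, against 11% of all genes). Cox20, an assembly factor of complex IV, had 294, 360 and 359 CPM in WT and 171, 207 and 187 CPM in KO. These groups did not overlap (−0.84, SE 0.18, limma adjusted p = 0.247), and 804 of its exon bases lie opposite Hnrnpu. Sco2, a copper chaperone of complex IV, had −0.63 (SE 0.24, limma adjusted p = 0.397) and shares 829 bases with Ncaph2.

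Of 18 genes of the tricarboxylic acid cycle, 11 had positive estimates with a median of 0.12. At an unadjusted limma p below 0.05, 0 were higher and 1 was lower (5.56%, against 11% of all genes). That gene, Pdha1, encodes a subunit of pyruvate dehydrogenase and had 124, 143 and 103 CPM in WT and 94.3, 87.2 and 74.6 CPM in KO (−0.52, SE 0.21, limma adjusted p = 0.400). Of its exon bases 603 lie opposite Map3k15. Fh1, which encodes fumarase, had −0.38 (SE 0.28). Of 8 regulators of mitochondrial biogenesis with a row (14 listed), 2 had positive and 6 negative estimates, with a median of −0.35 and 0 passed. Tfam, which packages and transcribes mitochondrial DNA, had 9.42, 9.14 and 8.79 CPM in WT and 19.5, 15.2 and 17.1 CPM in KO. Its groups did not overlap (0.88, SE 0.36, limma adjusted p = 0.422). Esrra, a nuclear receptor that drives respiratory genes, had 57.8, 94.5 and 87.9 CPM in WT and 52.3, 38.7 and 58.1 CPM in KO, which overlapped by KO 3 and WT 1 (−0.67, SE 0.26, limma adjusted p = 0.402). Esrra shares 73 exon bases with Trmt112 on the opposite strand.

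Among 6 mitochondrial carriers and channels, 5 had positive estimates with a median of 0.14. Slc25a3, the phosphate carrier that supplies the ATP synthase, had 57.8, 57.9 and 65.7 CPM in WT and 86.3, 76.9 and 78.9 CPM in KO. Its groups did not overlap (0.41, SE 0.19, limma adjusted p = 0.465), and Vdac2, an outer membrane channel, had 0.21 (SE 0.22). Of 68 mitochondrial ribosomal protein genes, 34 had positive and 34 negative estimates (median 0.02). The 2 with the smallest p, Mrps25 and Mrpl19, had −0.68 (SE 0.21) and −0.50 (SE 0.21) and overlap Nr2c2 (over 4590 exon bases) and Gcfc2 (1962) on the opposite strand. Of 80 cytosolic ribosomal protein genes, 0 had an unadjusted limma p below 0.05, against 11% of all genes. Their median log2 fold change was −0.01, and Rpl28 and Rpl30 had −0.36 (SE 0.18) and 0.75 (SE 0.38). These 2 genes share 183 exon bases with Ube2s and 616 with D730044K07Rik on the opposite strand. Of 5 further nuclear partners of the chain, 3 had positive estimates, Usmg5 0.53 (SE 0.42) and Atpif1, the inhibitor of the ATP synthase, −0.21 (SE 0.21). Usmg5 and Atpif1 overlap Taf5 (over 16 exon bases) and Gm12999 (485) on the opposite strand.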

How the data were processed

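The series holds 6 RNA-seq libraries made from total RNA with a stranded kit, 3 KO and 3 WT. The authors deposited a signal per gene and library, TMM-normalized CPM of filtered genes, per the name of the table. The submitters' processing notes name HISAT2 2.1.0, StringTie 1.3.5, edgeR, cutadapt 1.18 and bcl2fastq, and build mm10, without their roles. No source used here gives the annotation, strand setting or filter. One read is worth 0.382 to 0.762 CPM, depending on the library, and dividing by it gave whole numbers for 100% of values (tolerance 0.001 reads), so whole reads were recovered (989217 to 5266617 per library).

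The main test was limma 3.58.1 in R 4.3.3 on log2(CPM + 0.5) values (trended prior variance, two-sided p), adjusted by Benjamini-Hochberg across 10189 genes and called at 0.05. edgeR 4.0.16 and DESeq2 1.42.0 on recovered reads were alternatives. The edgeR count test called 2 genes and DESeq2 108. Gene positions and lengths came from GENCODE M21 (9814 symbols matched, all members among them), taking the principal coding transcript. Other steps ran in Python 3.11.15 (scipy 1.17.1, pandas 2.3.3, numpy 2.4.6, matplotlib 3.10.9).

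The members and lists were chosen with earlier results of these data known. Members named were, per complex and direction, those of smallest p, then central subunits, paralog pairs and the 2 genes of smallest p of each related list. Further genes were picked once their values were known. The proliferation, mural, osteoblast and adipocyte markers fixed for these cultures had a median log2 fold change of −0.74, −1.44, 1.40 and −0.00. Adipocyte markers with a row numbered 2. No 2 libraries of a genotype agreed within sampling noise (chi-square per degree of freedom 5.82 to 27.7). 1 column name differs from its sample title by a character. 0 columns were left unmapped. Alternatives were other pseudocounts, filters, scalings, limma settings, a replicate block, members without opposite-strand exons and leaving out libraries. The values of 1 member are not reported here, although it is counted in all totals.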

Additional observations from a re-analysis of the deposited data

How the results depend on the processing

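No alternative that was run called any member (0 in each), and 0 of the 427 adjusted p-values of the 26 named members passed the threshold; DESeq2 gave none for 10 further values. The genes called over the table, 0 higher and 1 lower in the limma fit, were 7 and 3 without the trend, 1 and 3 with robust empirical Bayes, and 27 and 81 with DESeq2. The lower count was 2 with pseudocount 1, with edgeR and with WT 1 and KO 2 both left out. Without 1 library at a time the calls ran from 0 to 7 higher and from 0 to 25 lower, the most without KO 2.

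Members at an unadjusted p below 0.05, 4 higher and 0 lower, were 2 higher with median centring and with robust empirical Bayes, 1 higher with DESeq2 and 1 higher among members without opposite-strand exons. Without 1 library they ran from 0 to 5 higher and 0 to 1 lower, and 1 was lower with WT 1 and KO 2 left out. Members without overlap between groups, 13 of 76, were 19 to 22 without 1 library and 32 without both, since fewer values have to separate.

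The median log2 fold change of all members was 0.05 without opposite-strand exons and 0.07 to 0.18 without 1 library. By complex the latter range was 0.03 to 0.26 (I), 0.39 to 0.59 (II), −0.07 to 0.16 (III), 0.01 to 0.27 (IV) and −0.07 to 0.08 (V). For complex III it was 0.15 with a mean of at least 20 CPM, 0.13 with WT 1 and KO 2 left out and −0.09 without opposite-strand exons. The cause was not tested.

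Of the 26 named members 16 kept their sign throughout. Without 1 library the sign turned for Uqcrq (range −0.51 to 0.14), Uqcrc1 (−0.18 to 0.17, and 0.08 without WT 3), Cox4i1 (−0.08 to 0.24, and −0.06 without KO 2), Cox7a2 (−0.03 to 0.35), Atp5g1 (−0.27 to 0.07, and 0.06 without WT 3), Atp5g2 (−0.03 to 0.55) and Atp5g3 (−0.15 to 0.27, and −0.05 without WT 1). With WT 1 and KO 2 left out, a step chosen after seeing the data, it turned for Uqcrq (0.12), Cox4i2 (0.02), Cox5a (−0.12), Atp5g1 (0.11) and Cox7a2l (−0.09).

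With a replicate block, 0 genes were called lower and 1 member was lower at an unadjusted p below 0.05. Libraries of the same number did not deviate together (correlations 0.02, 0.07 and −0.06 over all genes), so the numbers were not taken as pairs. At a median of 56.0 reads per member and library, a change of 2-fold lay outside the 95% interval for 38 of 76 members. Other scalings moved the median of all genes by −0.034 to 0.030 (log2).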
